A study of Danio rerio with 11 samples.

Results

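The genes described here are 47 DNA damage checkpoint and repair genes, chosen by symbol from a list of known pathway members. Of these, 44 had a row under that symbol in the tables of the irradiated groups, among 19071 genes found in all 3 tables. The other 3, atr, fanca and xrcc2, had no such row. Their gene identifiers, paired with the symbols through a reference table of gene names, stood only in the torpor table, with means of 47.7 normalized counts for ATR (ENSDARG00000079625), 5.07 for fanca (ENSDARG00000098241) and 3.36 for XRCC2 (ENSDARG00000013933).

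RNA from the zebrafish gastrointestinal tract was sequenced in 4 groups. The torpor group (18.5-mel, 2 samples) lived at 18.5 °C and was given melatonin at 24 µM over 10 days. The radiation group (28.5-rad, 3 samples) stayed at 28.5 °C and received a whole body dose given as 32.64 cGy in the sample labels and 32.68 cGy in the protocol. Fish given both (18.5-mel-rad, 4 samples) had the cold, the melatonin and the same dose. The dose was split over 2 exposures under tricaine anaesthesia, and fish were killed on day 10. The control group (28.5-Ctrl, 2 samples) was kept at 28.5 °C with neither. Each deposited table holds the authors' comparison of 1 treated group with 28.5-Ctrl. The fold changes and p-values of those comparisons were not used, so nothing here sets a treated group against 28.5-Ctrl. What was used is the mean of normalized counts over all libraries of each fit, and from it, for low genes, the reads in each library.

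DNA damage is sensed by kinases that act on broken or single-stranded DNA. Atm responds to double-strand breaks and Atr to stretches of single-stranded DNA, and they act on the checkpoint kinases Chek2 and Chek1, which hold the cell cycle. Repair then follows the kind of lesion. Breaks are rejoined by end joining or copied from a sister chromatid by homologous recombination, altered bases and single-strand breaks go to base excision repair, bulky adducts to nucleotide excision repair, mispaired bases to mismatch repair, and crosslinks to the Fanconi anaemia pathway. The gut epithelium renews itself rapidly and is known as a radiosensitive tissue.

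Each mean is a sum over libraries of whole reads times a fixed step, and genes with a single read in all show the step of each library. The 3 tables showed 14 such libraries, lettered A to N here, of which 12 (A to L) entered the radiation table, 11 the torpor + radiation table and 13 the torpor table. The labels name 11 samples, and no library was tied to a sample or a group. Library C was absent from the torpor table, library G from the torpor + radiation table, and libraries M and N stood only in the torpor table. In the torpor fit, 1 read was worth 4.42 normalized counts in M and 15.6 in N, against 0.382 to 1.21 in the 11 libraries shared with the radiation table, so 3 reads corresponded to 13.3 and 46.7 normalized counts in M and N. Values of M and N are therefore coarse. Reads per library were solved for 24 of the 44 genes. Of the other 20, msh6 had no single solution and 19 had means above 65, the highest tried. The solutions of 8 of the 24 hold only if libraries are assumed to differ by less than 0.5 of a gene's level in the count of accidental solutions (ddb2, ercc4, fancd2, fanci, lig4, mre11a, xrcc4 and xrcc6), and those of ercc4, lig4 and mre11a only at 0.2. No test was made between libraries, since none has a known group. Exocrine pancreas, enterocyte and liver markers were read in the tissue at up to 84000, 27500 and 40500 normalized counts in the radiation table. Of 10 testis and germ cell markers all were found, 1 of them listed at 0 and the highest at 4.23 in the radiation table, while sycp1 had 49.4 in the torpor table. Of 10 ovary and oocyte markers 8 were found, 2 of them listed at 0 and the highest at 24.9 in the radiation table, while zp3b had 44.4 in the torpor table.

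The 44 genes had means from 1.42 to 486 normalized counts in the radiation table, with a median of 55.8, against a median of 32.6 over 18166 genes with a mean above 0. Their median place among those genes was the 59.7th percentile. Among entries with a mean of at least 10 it was the 39.9th, with the 44 genes themselves not cut at that mean, which lowers the place. These means count reads and are not divided by transcript length, so they do not rank the genes against each other by level. The most read was ddb1, the damage-binding adaptor of a ubiquitin ligase, with 336 normalized counts in the torpor table and 486 in the radiation table. Means below 10 in the radiation table were found for 7 genes, fancg, rad52, xrcc3, msh3, chek2, rad51c and pms2.

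The tables were normalized separately, and the median gene of 11338 with a mean of at least 10 in both was at 0.64 times in the torpor table of its mean in the radiation table. Against that median, the ratio of 31 of the 44 genes lay within 0.25 on the log2 scale, as did that of 81.5% of the 11338 genes. The median of the 44 was 0.01. More than 0.5 above the median lay 7 of the 44, against 9.29% of the 11338 genes, and more than 0.5 below it lay none, against 0.0617%. The 44 include genes with means below 10, chek2 among them, so these shares are not alike in depth. In the 11 shared libraries, the torpor step was 0.599 to 0.621 times the radiation step. A gene without reads in M and N thus stays near that ratio unless C holds many of its reads, so few genes can lie far below the median. The tables share 11 libraries and differ by M, N and C, so these ratios are not a comparison of 18.5-mel with 28.5-Ctrl. Between the torpor + radiation table and the radiation table, which share 11 libraries, the 44 genes ranged from -0.23 to 0.11 around the median ratio. These means differ by the absence of G and by library B, where 1 read added 2.097 times as much to the torpor + radiation mean, so the range compares no groups.

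**Figure D1:**
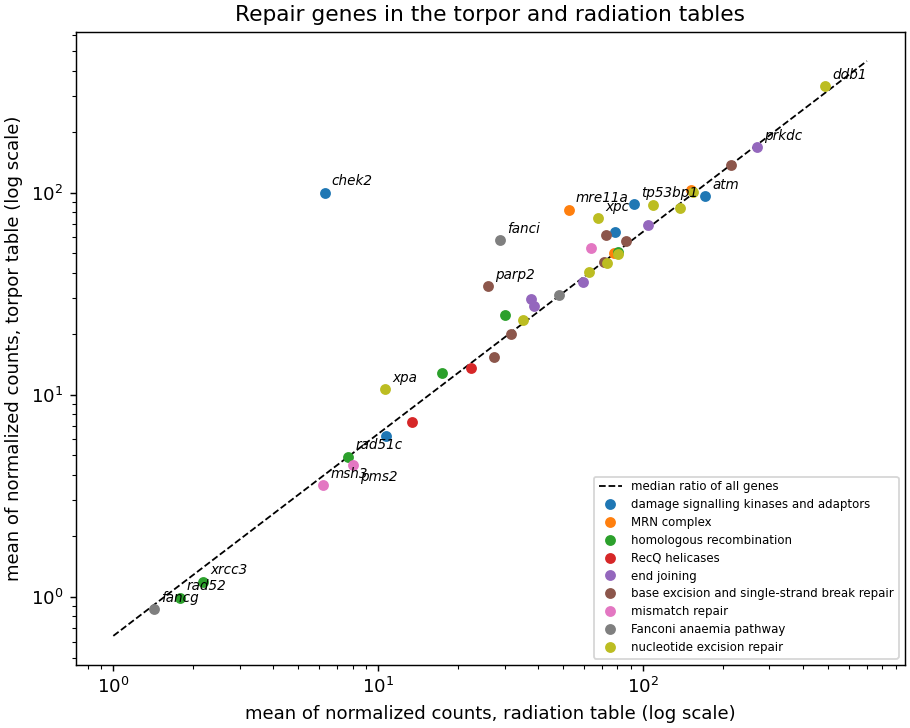
Mean of normalized counts of the 44 repair genes in the torpor table (vertical axis, log scale) and the radiation table (horizontal axis, log scale), coloured by pathway, with the median ratio of all genes as a dashed line. Most genes lie along the line, and chek2, at 100.1 in the torpor table and 6.28 in the radiation table, lies farthest above it.

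Among the damage signalling genes, chek2, the checkpoint kinase downstream of Atm, stood apart. Its mean was 100.1 normalized counts in the torpor table and 6.28 in the radiation table, which is 4.64 above the median ratio on the log2 scale. It had 140 reads in M and 41 in N, worth 619 and 638 normalized counts in the torpor fit, against 1.29 to 7.62 in the 11 shared libraries. M and N together made up 96.5% of its torpor mean. In the 12 libraries of the radiation fit chek2 had 79 reads in all, from 1.93 normalized counts in F to 11.7 in I with a median of 5.98.

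The other checkpoint kinase, chek1, which acts below Atr, had no read in M or N. It ran from 2.89 normalized counts in F to 21.7 in G in the radiation fit, with a median of 8.76. It was above 16 in E, G, I and J and at most 11.9 in the other 8 libraries. The adaptor tp53bp1, which binds chromatin near breaks, lay 0.57 above the median ratio, with 87.9 normalized counts in the torpor table and 92.5 in the radiation table, and mdc1, the mediator that binds phosphorylated H2AX, lay 0.35 above. The kinase atm was among the lowest, at -0.19, with 96.4 normalized counts in the torpor table and 171.6 in the radiation table. Reads per library were not solved for these 3.

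The MRN complex, which holds and trims broken ends, comprises the products of mre11a, rad50 and nbn. The nuclease gene mre11a lay 1.3 above the median ratio. It had 63 reads in M and 26 in N, 278 and 405 normalized counts in the torpor fit, against 19.1 to 52.5 in the shared libraries. In the radiation fit it ranged from 29.4 in A to 80.5 in I, with a median of 49.7. Its partners rad50 and nbn lay at 0.09 and 0.01, with 103.4 and 50.04 normalized counts in the torpor table, against 151.7 and 77.7 in the radiation table.

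**Figure D2:**
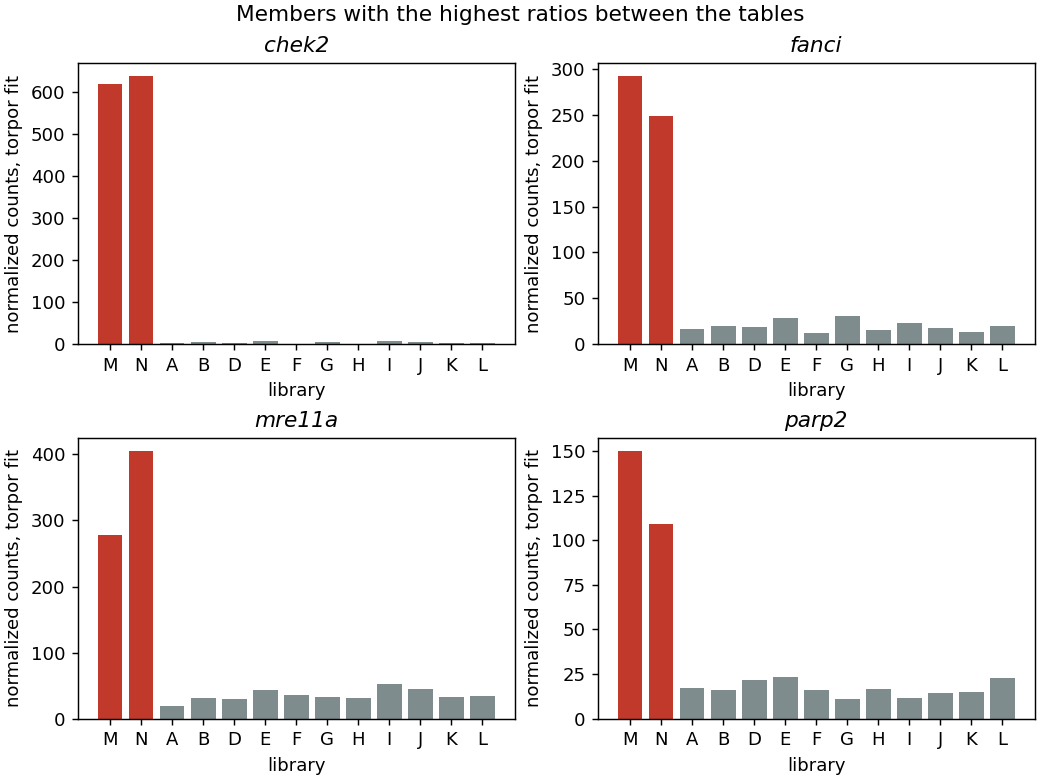
Normalized counts in the torpor fit (vertical axes, linear, from 0) of chek2, fanci, mre11a and parp2 in libraries M and N (red) and in the 11 libraries shared with the radiation table (grey), 1 bar a library. M and N are above every grey bar for all 4 genes, with chek2 at 619 and 638 against at most 7.62. The reads of fanci were accepted only at an assumed spread below 0.5, and those of mre11a only at 0.2.

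In homologous recombination, rad54l, which encodes a DNA-dependent motor protein, had the highest index of dispersion of the 24 solved repair genes. It had 63.1 normalized counts in L and 11.6 in F, with a median of 27.2 over the 12 libraries of the radiation fit. Its index of dispersion, the squared deviation from a constant level divided by what counting error alone gives, was 7.98, where 1 is counting error alone. The index grows with the number of reads, and by the ratio of the highest to the lowest library rad54l, at 5.45, was below rad51c, msh3, chek1 and chek2, at 24, 10.5, 7.5 and 6.06, among genes read in all 12. The lowest library held 1, 1, 3 and 2 reads for rad51c, msh3, chek1 and chek2, against 12 for rad54l, so their ratios rest on few reads. Over 4606 solved genes with a mean of at least 10 and in the same range, the median index was 2.35 and the quartiles 1.48 and 3.72. Their reads were accepted under an assumed spread of 0.2 between libraries, so these values rest on that assumption.

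The genes rad51b, rad51c and xrcc3 encode accessory factors of break repair by recombination. The gene rad51b had 7.23 normalized counts in G and 31.8 in H, with a median of 15.3, and rad51c had 0.845 in D, 1 read, and 20.3 in J, with a median of 6.70. With 33 reads over the 12 libraries, xrcc3 had none in J and L, at most 4.70 normalized counts in A, and an index of 1.06. The mediator rad52 had 18 reads in all, none in 5 libraries, and 10.8 normalized counts in L, where the next highest value was 3.10 in G. Both rad52 and xrcc3 were without a read in M and N, and were among the lowest ratios, at -0.20 and -0.24. The gene brca2, a mediator of break repair and a tumour suppressor in humans, had 50.8 normalized counts in the torpor table and 80.1 in the radiation table and lay at -0.01.

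The RecQ helicases blm and wrn unwind recombination intermediates. In the radiation fit blm had 9.65 normalized counts in F and 39.2 in E with a median of 22.1, and wrn had 5.17 in G and 25.7 in J with a median of 13.2. Libraries that were high for one were not always so for the other, as H had 12.7 for blm and 24.4 for wrn. No read of wrn was found in M or N, and its ratio lay at -0.23.

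**Figure D3:**
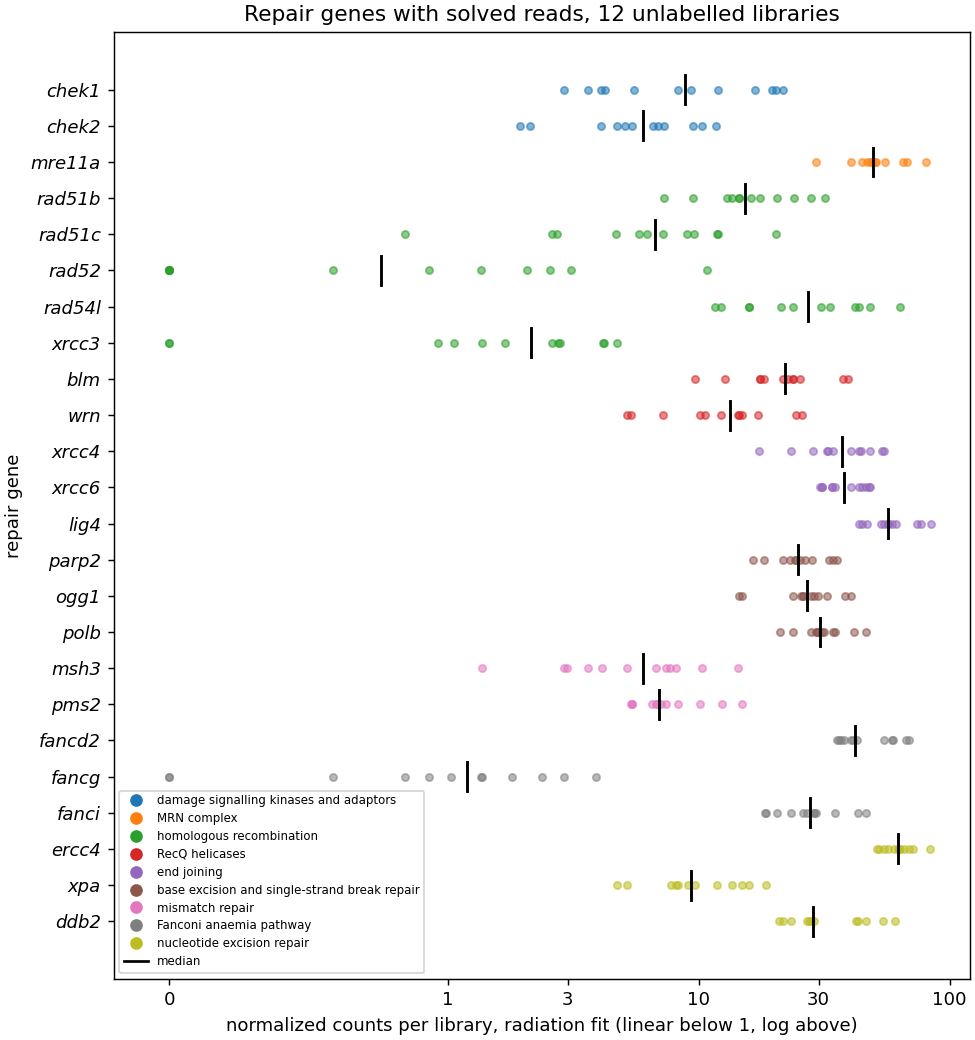
Normalized counts in the radiation fit (horizontal axis, linear below 1 and log above) of the 24 genes with solved reads, 1 point for each of 12 unlabelled libraries, coloured by pathway, with the median as a black line. The points of rad51c run from 0.845, which is 1 read, to 20.3, and those of xrcc6 from 30.4 to 48.1. These genes are not alike in depth, with 103 reads for rad51c and 501 for xrcc6 over the 12 libraries. The reads of xrcc6 were not accepted at an assumed spread of 0.5.

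Among end joining genes, xrcc6, a Ku subunit that caps broken ends, had 30.4 normalized counts in D and 48.1 in C and an index of 1.39, on reads accepted at assumed spreads of 0.2 and 0.3 but not 0.5. The ligase gene lig4 ran from 43.4 in G to 84.1 in K, on reads accepted only at an assumed spread of 0.2. Its scaffold xrcc4 ran from 17.4 in F to 54.5 in I with an index of 4.08, on reads not accepted at 0.5. For xrcc4 and xrcc6, M and N lay above the 11 shared libraries, on few reads. For xrcc4 there were 9 reads in M and 4 in N, 39.8 and 62.2 normalized counts against at most 35.5, and for xrcc6 8 and 3 reads, 35.4 and 46.7 against at most 31.3. The kinase prkdc and the other Ku subunit, xrcc5, lay at -0.04 and 0.05 around the median ratio.

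In base excision and single-strand break repair, parp2, which senses nicks, had 34 reads in M and 7 in N, 150 and 109 normalized counts in the torpor fit, against 10.8 to 23.6 in the shared libraries. It lay 1.05 above the median ratio. In the radiation fit it was even, from 16.5 in G to 35.4 in E, with an index of 1.26. Its relative parp1 lay at 0.05, with 57.3 normalized counts in the torpor table and 86.4 in the radiation table. The oxidised-guanine glycosylase gene ogg1 had no read in M or N and 14.4 normalized counts in L to 40.3 in H, and its ratio lay at -0.19. The repair polymerase gene polb ranged from 21.1 in D to 46.3 in F. The scaffold xrcc1 lay at 0.41, and lig3 and apex1 within 0.02 of the median.

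The mismatch repair genes msh3 and pms2, a recognition subunit and a nuclease subunit, had no read in M or N. In the radiation fit msh3 ran from 1.36 in K to 14.3 in I with a median of 5.96, and pms2 from 5.36 in B to 14.9 in E with a median of 6.92 and an index of 1.15. Their ratios lay at -0.15 and -0.20, and that of msh6 at 0.38.

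In the Fanconi anaemia pathway, fanci and fancd2 encode the pair that is clamped on DNA at a crosslink. The gene fanci had 66 reads in M and 16 in N, 292 and 249 normalized counts in the torpor fit, against 12.2 to 30.5 in the shared libraries, and lay 1.66 above the median ratio. Its partner fancd2 had 3 reads in each of M and N and lay at 0.01. In the radiation fit fanci ran from 18.3 in F to 46.5 in G with a median of 27.9, and fancd2 from 35.5 in D to 69.0 in E with a median of 42.0. With 17 reads over 12 libraries, fancg, a core complex subunit, had at most 3.89 normalized counts, in I.

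For nucleotide excision repair, ddb2, which recognises ultraviolet lesions and is known as a p53 target in humans, had an index of 5.56, second to rad54l. It had 60.4 normalized counts in C, 54.3 in K, 46.3 in F, 43.1 in D and 42.4 in H. The other 7 libraries had between 20.8 and 28.8. The index of ddb2 and these values rest on reads not accepted at an assumed spread of 0.5. The endonuclease gene ercc4 ran from 51.3 in J to 83.1 in I with an index of 1.11, but its reads were accepted only under an assumed spread of 0.2, so they cannot show how even the gene is. The scaffold xpa had 4 reads in M and 3 in N, 17.7 and 46.7 normalized counts against at most 12.4 in the shared libraries, and lay at 0.65. The lesion sensor xpc lay at 0.78, with 74.8 normalized counts in the torpor table and 67.9 in the radiation table. The 4 ERCC genes ercc1, ercc2, ercc3 and ercc6 lay between -0.08 and 0.03 and ercc5 at 0.31.

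**Figure D4:**
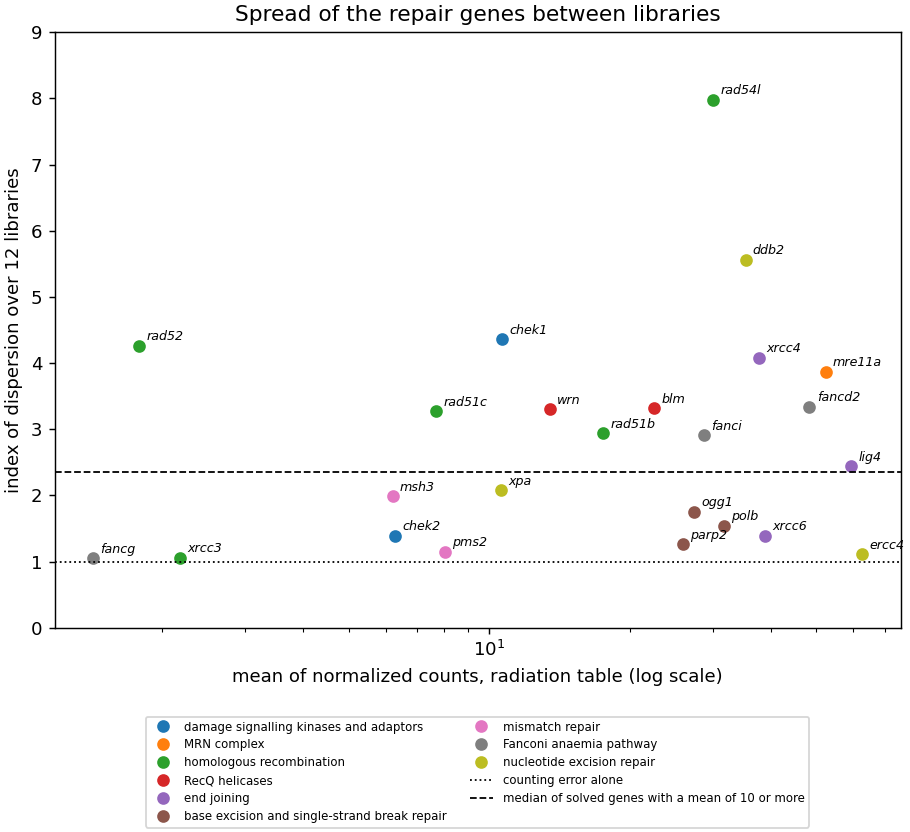
Index of dispersion over the 12 libraries of the radiation fit (vertical axis, linear) against the mean of normalized counts in the radiation table (horizontal axis, log scale) for the 24 solved genes, coloured by pathway. The dotted line is counting error alone and the dashed line the median of solved genes, 2.35. Farthest above both are rad54l at 7.98 and ddb2 at 5.56. All values rest on reads accepted under an assumed spread of 0.2 between libraries. The reads of ddb2 were not accepted at an assumed spread of 0.5.

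Among the 17 solved genes with a mean of at least 10, the median index was 2.94, against 2.35 for the 4606 genes. The highest library was at a median of 2.79 times the lowest for these 17 genes and at 2.79 times for the solved genes. The 24 replication genes with solved reads, of 38 found, had summed values from 343.3 normalized counts in K to 861.5 in E. The sums in E, I, G, L and J, the 5 highest, were 861.5, 787.8, 702.7, 670.4 and 587.3. In these libraries chek1 had 16.8, 19.5, 21.7, 3.60 and 20.3 normalized counts and fanci 42.9, 35.0, 46.5, 28.8 and 27.0. Library L was thus high in the sum and low for chek1, but the chek1 value in L is 2 reads, where 3 reads would be 5.41. Elsewhere chek1 had at most 11.9, in B, while fanci had 29.2 in B and 28.7 in D, above its value in J. These are 2 of the 24 solved repair genes. Another, ddb2, was highest in C and K, at 60.4 and 54.3, where the sums were 401 and 343.3. The other solved repair genes were not set against the sums. The reads of fanci and ddb2 were not accepted at an assumed spread of 0.5. Whether the genes move together was not tested.

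A wider list of 83 repair and checkpoint genes held 72 with a row, of which 57 had solved reads. Their median ratio between the tables was 0.10 above that of all genes, 14 lay more than 1 above it and none more than 1 below, where few genes can lie. Of the 11338 genes with a mean of at least 10 in both tables, 4.4% lay more than 1 above, but the 72 genes include lower ones, so the shares are not alike in depth. The highest was fancl, the ligase subunit of the Fanconi core complex, at 6.17, with 225.0 normalized counts in the torpor table and 4.90 in the radiation table. It had 245 reads in M and 116 in N, against 1 to 13 in the other libraries. The helicase gene recql4 lay at 2.87 with 83 reads in M and 28 in N, and aptx, which trims blocked DNA ends, at 2.84 with 65 and 36.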

How the data were processed

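RNA-seq libraries of zebrafish gastrointestinal tract were trimmed with cutadapt, aligned with STAR to GRCz11, counted with HTSeq and compared in DESeq2 by the authors. Versions are not given in the sources used here. The signal used is the mean deposited by the authors, the mean of normalized counts over all libraries of each DESeq2 fit. The other columns hold the authors' fold changes, standard errors, Wald statistics and p-values against 28.5-Ctrl, and were not used, so no test was made.

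Steps were taken from triples of means shared by at least 10 genes and refined by least squares on 948 genes, leaving residuals of 0.570 to 0.574 in units of 0.5 of the last digit, where rounding gives 0.577. Whole reads were found for genes with a mean up to 65 by lattice reduction (Python 3.11.15, numpy 2.4.6, sympy 1.14.0). A solution was kept where spreads of 0.2, 0.3 and 0.5 between libraries gave the same reads and fewer than 0.01 accidental solutions were expected at 0.2. Of 11406 genes tried, 10670 (93.5%) were solved, and 24 of 25 repair genes tried; 19 repair genes had higher means and were not tried. The method was tested on simulated data, where levels in M and N were mostly set below those of the other libraries. Genes as high in M and N as chek2 were hardly covered by that test. These settings were chosen after solutions of the repair genes had been seen.

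The genes and lists were chosen with earlier results of these data known. Named genes were those with a mean below 10 or among the 5 highest or lowest ratios between tables; the part of the rule on levels per length was not applied, and other genes were named after their values were seen. Ratios were centred on genes with a mean of at least 10 in both tables.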

Additional observations from a re-analysis of the deposited data

How the results depend on the processing

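The median percentile of the 44 genes was 59.7 with all entries or those with a symbol. It was 39.9 among entries with a mean of at least 10, with the 44 genes themselves not cut at that mean. Their median ratio between the tables, 0.01, was 0.04 with the centre from genes with a mean of at least 100, 0.02 from those above 0 and -0.06 with sums of the means over shared genes. With sums over every entry of each table, an alternative chosen after seeing the data, it was -0.60, since the torpor table has 32520 entries, against 19072 in the radiation table. That alternative put chek2 at 4.03, fanci at 1.05, mre11a at 0.69 and parp2 at 0.44. Further alternatives chosen after seeing the data concern the 24 solved genes. With a spread of 0.3 the number was 21, without ercc4, lig4 and mre11a, and with 0.5 it was 16, also without ddb2, fancd2, fanci, xrcc4 and xrcc6. Allowing 0.001 accidental solutions gave 20, without ercc4, lig4, mre11a and rad54l, and 0.1 or no limit on the mean gave 24. Reads of these genes rest on the assumed spread. Alternatives per coding length and on promoters were not run, for want of sequences and lengths. No paired analysis was possible because no deposited column used here belongs to a sample.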

Other observations

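Libraries M and N, found only in the torpor table, stood apart from the others for some repair genes. Both lay above all 11 libraries shared with the radiation table for 7 of the 24 solved repair genes (29.2%). These were chek2, fanci, mre11a, parp2, xrcc4, xrcc6 and xpa. Among solved genes in the same range of means, M and N lay above all 11 for 1627 of 7916 (20.6%). In N, 1 read is worth 15.6 normalized counts, above the highest shared value of xpa, 12.4. For a gene as low as this, any read in N places N above the shared libraries. The reads of fanci, mre11a, xrcc4 and xrcc6 were accepted only at an assumed spread below 0.5, those of mre11a only at 0.2. At 0.5, with 16 repair genes solved, only chek2, parp2 and xpa remain of the 7. The share of repair genes thus rests on 7 genes and on the assumed spread, and its difference from that of all genes was not tested. Of the 24 repair genes, 18 had under 10 reads in M and N together. The share of all genes at 0.5 was not computed. Libraries M and N both had no read for 8 of the 24 (33.3%), against 1821 of the 7916 (23%). In M and N, 0 reads allow up to 13.3 and 46.7 normalized counts, in N above every shared library for these 8 genes, and in M above those of msh3, pms2, rad52, xrcc3 and fancg but not of chek1, wrn and ogg1. Of 9 testis and germ cell markers with solved reads, 2 lay above all 11 shared libraries in both M and N. These were sycp1 with 57 and 24 reads and piwil2 with 6 and 1. The 1 read of piwil2 in N, 15.6 normalized counts, stands against at most 14.5 in the shared libraries. No read in M or N was found for 3 of the 9, piwil1, dazl and tekt1. The ratio between the tables was more than 1 above the median for 3 of the 9, sycp1, sycp3 and piwil2, at 5.21, 1.44 and 1.08. That of sycp3 rests on 1 read in N and none in M. Of the 11338 genes with a mean of at least 10 in both tables, 4.4% lay more than 1 above. The germ cell markers had lower means in the radiation table, so the shares are not alike in depth. Of 6 ovary and oocyte markers with a ratio, 2 lay more than 1 above, zp3b at 1.61 and zar1 at 1.16. One more, gdf9, lay at -1.47, on at most 2 reads in a library. Labelled samples number 11 and libraries 14, and M and N were tied to no group. The paper also describes fish given melatonin alone and fish kept in the cold alone, which have no labelled sample here. Titles of the 2 labelled torpor samples have another form than the other titles. Whether either bears on M and N was not tested. The authors name sequencing facilities in Chapel Hill and in Belfast, without saying which samples went to which. Whether M and N differ from the other libraries in facility was not tested.

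For library B, 1 read added 2.097 times as much to the torpor + radiation mean as to the radiation mean, against 1.045 to 1.048 times for the other 10 shared libraries. What sets B apart was not tested.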
